A study of Mus musculus with 15 samples.

Results

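The genes described here encode the enzymes that make, break down and respond to cyclic nucleotides and intracellular calcium. They were chosen by gene symbol: every gene named in the authors' 6 histone H3 tables outside chromosome 1 whose symbol marks it as a phosphodiesterase (Pde), adenylyl cyclase (Adcy), guanylyl cyclase (Gucy), cGMP-dependent kinase (Prkg1, Prkg2), protein kinase A subunit (Prkar, Prkac), protein kinase C isoform (Prkc), calmodulin-dependent kinase (Camk), phospholipase C (Plcb, Plcg) or inositol trisphosphate receptor (Itpr). This gave 49 genes of the 6692 named in those tables outside chromosome 1. Of the 49, 46 held at least 1 position of changed H3 occupancy and the other 3, Gucy2c, Itpr3 and Prkar1b, were named for a nucleosome shift alone. The symbols Camkmt, Pde4dip and Itpripl1 match by their letters but encode no enzyme of the pathway: a methyltransferase of calmodulin, a scaffold of the centrosome and Golgi, and a relative of an inositol trisphosphate receptor-interacting protein.

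In striatal neurons, dopamine and other transmitters act through G proteins on adenylyl cyclase, whose product cAMP activates protein kinase A, and on phospholipase C, whose products release calcium through inositol trisphosphate receptors and activate protein kinase C. Nitric oxide raises cGMP through soluble guanylyl cyclase and so activates cGMP-dependent kinase, while calcium bound to calmodulin activates the Camk family. Phosphodiesterases end both cyclic nucleotide signals, and the balance of these arms sets the response of medium spiny neurons, the main cell type of the nucleus accumbens.

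C57BL/6 mice were exposed to a new aggressive CD1 mouse on 10 consecutive days of social defeat, and a social interaction test then parted them into susceptible and resilient groups, which were compared with control mice. Nucleus accumbens was taken 48 hours after the last defeat, with punches from 10 mice pooled per replicate. Of 15 samples, the 3 of histone H3 (micrococcal nuclease digestion, 15 PCR cycles) and the 3 of ACF1 (sheared chromatin, 19 PCR cycles; ACF1 is the accessory subunit of the ACF nucleosome remodelling complex) had files. The labels speak of 3 replicates per group, but each comparison is 1 deposited table, so no value below has a spread between replicates and no test compares the groups. Bulk tissue also holds many cell types, and more cells of a type cannot be told apart from a change within it; the files hold no marker levels against which to check the tissue.

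The H3 tables list positions the authors selected, with the direction Up or Down and no size or p-value. No file states what Up refers to. It is read here as more H3 in the group a comparison names first, and the opposite reading would turn every direction below. All gene bounds and positions are on the build mm9. Any 2 of the 3 tables share the data of 1 group, so their entries are set side by side and are not independent.

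The enzyme genes were among the longer genes of the tables, and among genes of at least 100 kb the share with a position was close to that of all named genes. Their median length was 135 kb against 36.9 kb over all named genes, and 65.3% of them were at least 100 kb long against 22.7%. A position was listed at 28 of the 49 genes (57.1%) in susceptible against control, where 53.9% of all named genes held one. In resilient against control the number was 30 (61.2%), beside 53.3% of all named genes, and in resilient against susceptible 33 (67.3%), beside 49.2%. Among the 32 enzyme genes of at least 100 kb the shares were 71.9%, 75.0% and 71.9%, near the 69.4%, 70.1% and 69.6% of all named genes of that length.

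Counted per length, positions were fewer than over all long genes. Over the enzyme genes of at least 100 kb the tables listed 0.458, 0.393 and 0.421 positions per 100 kb, in the order just given, against 0.583, 0.575 and 0.530 over all long genes. Across the 49 genes, length and the total over the 3 tables had a Spearman rho of 0.52, against 0.47 over all named genes; genes are not independent points, and the tables share data. Pde4d and Prkg1, the 2 longest, took 21.8% of the summed length and 17.3% of the 168 entries.

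**Figure D1:**
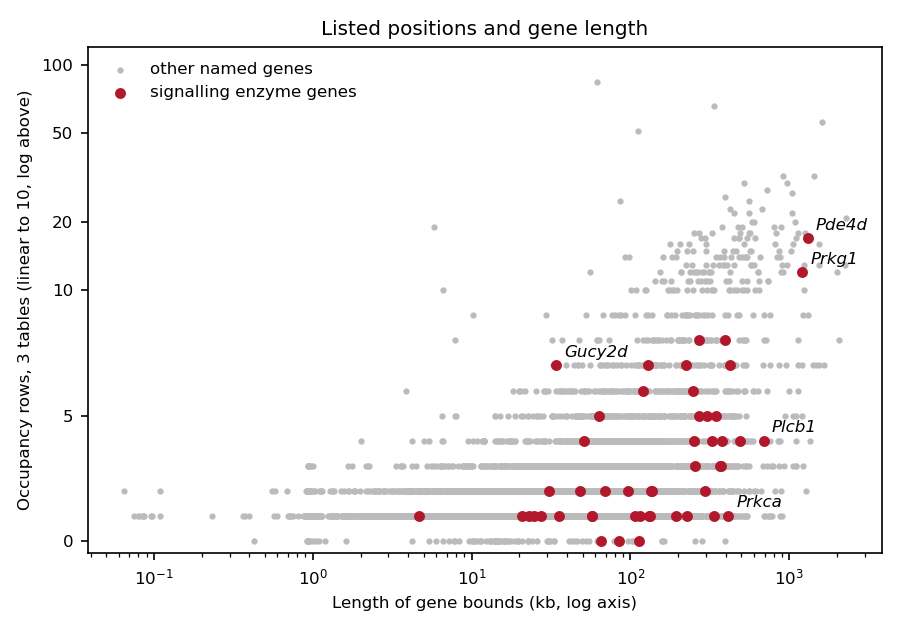
Number of H3 occupancy entries over the 3 tables (vertical axis, linear to 10 and logarithmic above) against the length of the gene bounds in kb (logarithmic axis), 1 point per gene outside chromosome 1. The enzyme genes (red) lie within the cloud of other named genes (grey), with Pde4d at 17 entries and Prkg1 at 12 at the long end and Gucy2d at 7 entries over 34.1 kb.

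Most positions were Down in the table of susceptible against control mice, and most were Up when resilient were set against susceptible mice. The first of these tables held 39 Down and 17 Up (30.4% Up, exact Clopper-Pearson 95% interval 18.8 to 44.1), beside 37.6% Up over all positions with a gene name. Resilient against control held 27 Down and 25 Up (48.1%, 34.0 to 62.4), beside 36.7%. Resilient against susceptible held 24 Down and 36 Up (60.0%, 46.5 to 72.4), beside 49.8%. Each interval includes the value over all named genes, and it covers counting error only, since neighbouring positions of 1 gene are not independent. Named genes of at least 100 kb had 38.8%, 40.4% and 51.3% Up.

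**Figure D2:**
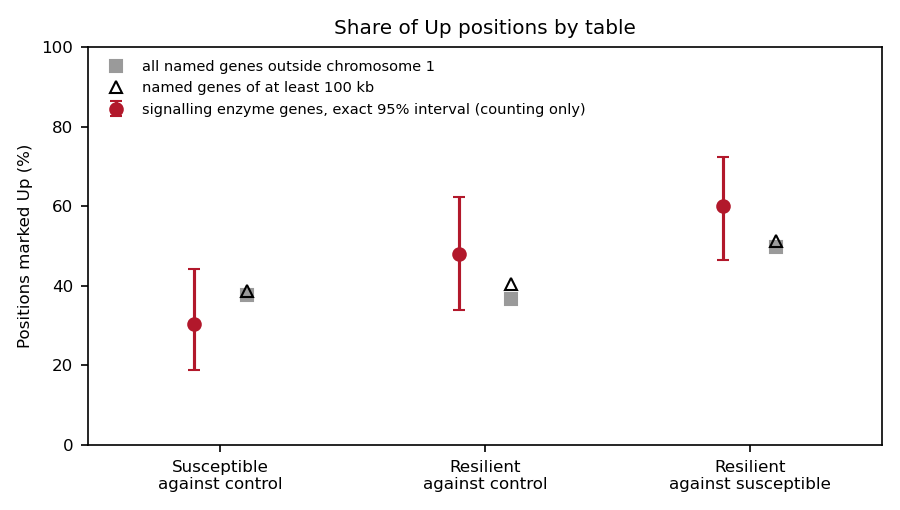
Share of positions marked Up (percent, vertical axis) in each of the 3 tables. Red points are the enzyme genes with their exact 95% counting intervals, squares are all named genes and triangles named genes of at least 100 kb, both outside chromosome 1; every interval spans its square.

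Most entries lay deep within genes. Of the 168, 161 were in the gene body class of the authors' tables and 7 in promoter classes, which reach 3 kb to either side of the start. The gene body share was 96.4%, 94.2% and 96.7% in the 3 tables, against 86.5%, 87.3% and 87.8% over all named genes. Over named genes of at least 100 kb it was 98.3%, 98.1% and 98.6%. Gene body entries had a median place at 52.7% of the gene's length, and 15 of all entries lay within 10 kb of a start. The entries stood for 146 distinct positions, and 4 pairs of neighbouring positions lay within 1000 bp of each other, at Adcy8, Camkk2, Gucy1a2 and Gucy2d. Exon and intron bounds of mm9 were not used here.

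**Figure D3:**
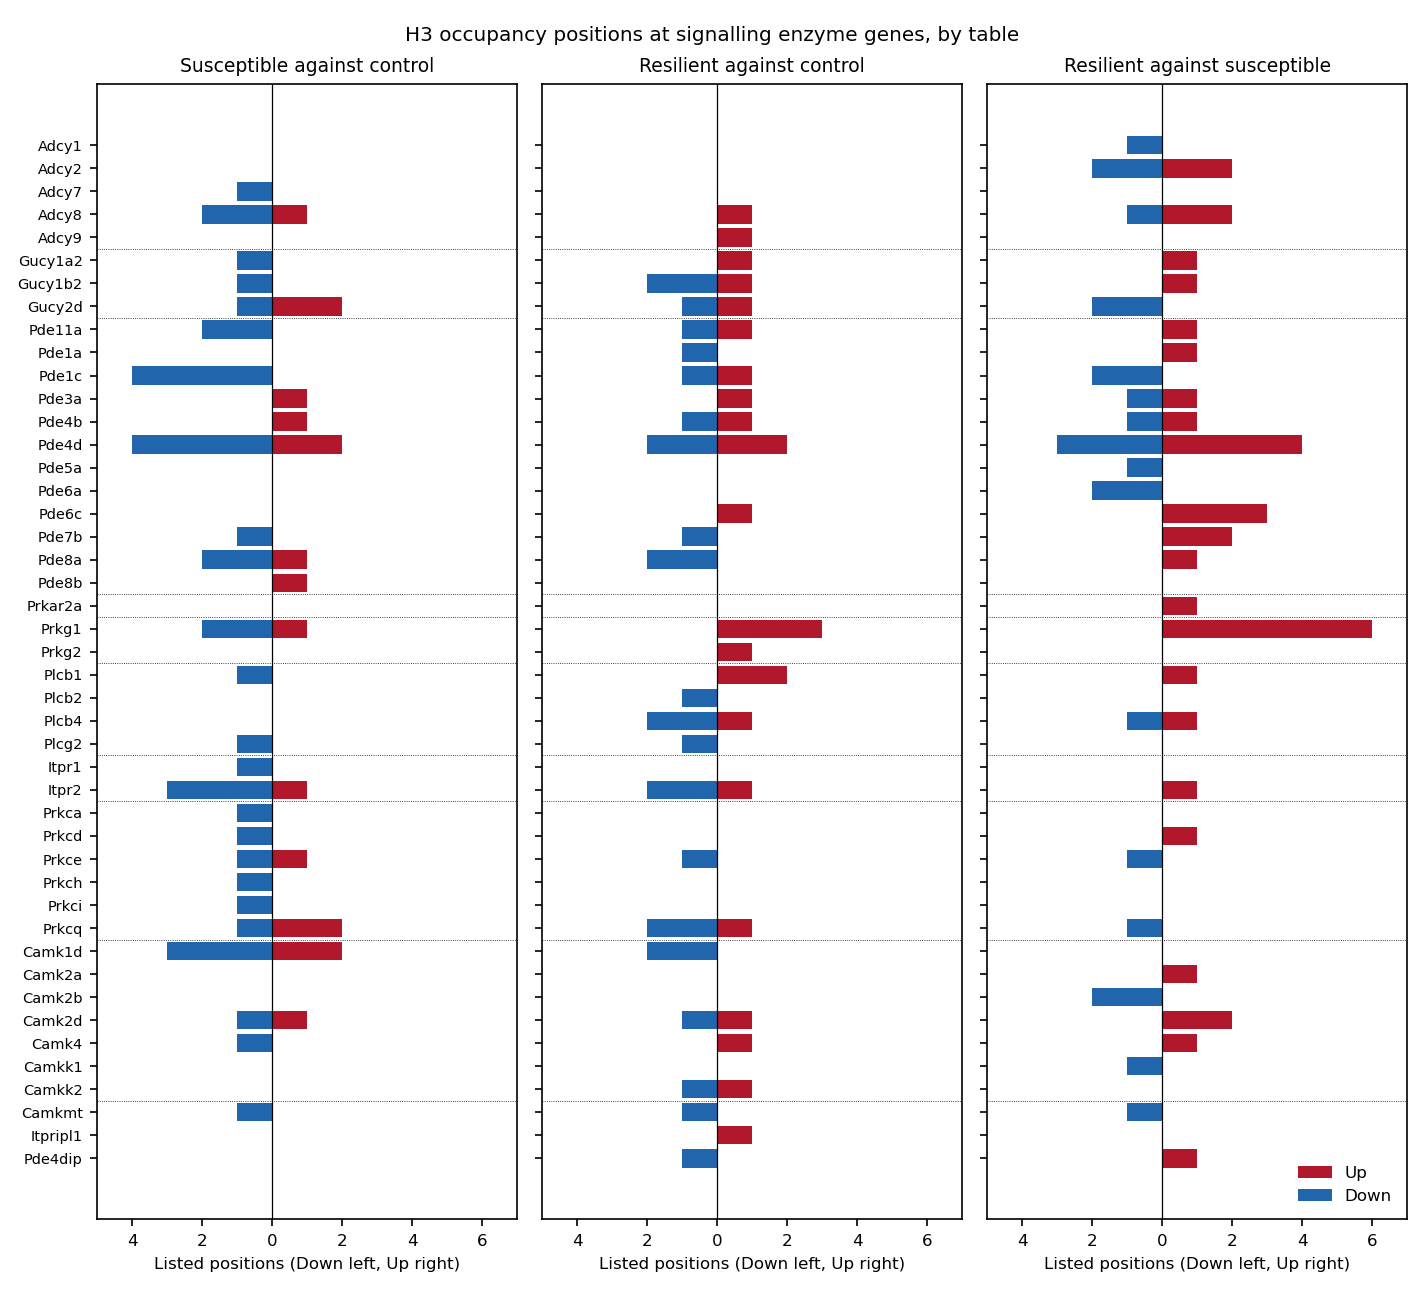
Number of listed H3 positions per gene in each table, Up to the right (red) and Down to the left (blue), for the genes with an entry that the text names, ordered by role with dotted lines between families. Prkg1 has 6 Up and no Down entry in resilient against susceptible, Pde1c has 4 Down and no Up in susceptible against control, and Pde4d has entries in both directions in every table.

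Adenylyl cyclases, which make cAMP, were represented by 5 genes with 14 entries. Adcy8, a calcium-stimulated cyclase on chromosome 15 (chr15:64530596-64753858), held 1 Up and 2 Down in susceptible against control, 1 Up in resilient against control, and 2 Up and 1 Down in resilient against susceptible. A pair of its positions lay 60 bp apart. Position 64657362 was Down when susceptible mice were compared with controls, and 64657422 was Up when resilient mice were compared with susceptible ones. By the reading used here susceptible mice had less H3 at both, in 2 tables that share the susceptible data.

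Adcy2, a cyclase stimulated by G protein beta-gamma subunits (chr13:68758919-69138419), was listed in resilient against susceptible only, with 2 Up and 2 Down. The Up positions lay 106 and 125 kb from its start and the Down positions 173 and 188 kb. With 4 positions in all, this order was not tested. Adcy1, another calcium-stimulated cyclase, held 1 Down in the same table, Adcy9 held 1 Up in resilient against control and Adcy7 held 1 Down in susceptible against control.

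Guanylyl cyclases, which make cGMP, held 15 entries at 3 of 4 genes. Gucy2d encodes a membrane cyclase of olfactory neurons, and in spite of its length of 34.1 kb (chr7:105591931-105625988) it held 7 entries at 4 distinct positions. Near its 3' end, 105623892 and 105624772, 880 bp apart, were Up for susceptible against control mice and Down for resilient against susceptible mice, so that susceptible mice had the most H3 in 2 tables that share their data. At 105602662 the gene was Down in both tables that use the control data. An Up position of resilient against control lay 1.52 kb inside the gene, in the outer promoter class.

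By the reading used here, susceptible mice had less H3 at single listed positions of the 2 soluble cyclase genes named in the tables. Each gene held 1 position in each of the 2 tables with susceptible mice, which share the susceptible data. Single positions do not describe a whole gene. Gucy1a2, the alpha-2 subunit, held 1 Down in susceptible against control, 1 Up in resilient against control and 1 Up in resilient against susceptible. The first and last of these lay 100 bp apart, at 3786212 and 3786112 of chromosome 9. Gucy1b2, the beta-2 subunit, held 1 Down in the first table, 1 Up and 2 Down in the second and 1 Up in the third. For the soluble pair together that is 0 Up of 2, 2 Up of 4 and 2 Up of 2.

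Phosphodiesterases formed the largest family, with 12 genes and 59 entries: 6 Up and 13 Down in susceptible against control, 7 Up and 9 Down in resilient against control, and 14 Up and 10 Down in resilient against susceptible. The 5 genes for enzymes that cleave cAMP alone (Pde4b, Pde4d, Pde7b, Pde8a, Pde8b) had 5 Up of 12, 3 Up of 9 and 8 Up of 12. Those that cleave both nucleotides (Pde1a, Pde1c, Pde3a, Pde11a) had 1 Up of 7, 3 Up of 6 and 3 Up of 6. Those that cleave cGMP alone (Pde5a, Pde6a, Pde6c) had no entry in susceptible against control, 1 Up in resilient against control, and 3 Up and 3 Down in resilient against susceptible.

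Pde4d, the largest gene of the set at 1302 kb (chr13:109444370-110746177) and a main cAMP phosphodiesterase of brain, held 17 entries with no single direction. There were 2 Up and 4 Down in susceptible against control, 2 Up and 2 Down in resilient against control, and 4 Up and 3 Down in resilient against susceptible. At 109610132 it was Down in both tables that use the control data. At 109869352 susceptible mice had more H3 than controls and resilient mice less than susceptible ones, and at 110005972 it was Up in both tables that use the resilient data. Each of the 3 groups was thus the highest at some position of this gene.

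Pde1c, a calcium- and calmodulin-stimulated enzyme and so a link between the calcium and cyclic nucleotide arms (chr6:56050433-56319628), held 8 entries. In susceptible against control 4 of 4 were Down. It was 1 of 9 enzyme genes with at least 3 positions in that table and the 1 with all of them Down, while of the 406 named genes with at least 3 positions there 20.9% had all of them Down. In resilient against susceptible 2 of 2 were Down, and resilient against control held 1 Up and 1 Down. It was the only gene of the set with an entry in the proximal promoter class, a Down position of susceptible against control 234 bp upstream of the start of the transcript NM_001159957.

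The 250 bases before that start are shown because the position falls within them, and those before the start of NM_001025568, the transcript to which the tables assign the other 7 entries, for comparison. They are from RefSeq on GRCm38.p6, minus strand, at chr6:56369635-56369884 and chr6:56362393-56362642. Since the tables are on mm9, the starts were matched by the distance between them, 7242 bp in both builds, which a single pair of the 3 Pde1c starts in RefSeq shows. Capitals mark the 11 bases centred on the listed position; positions lie on a grid of 10 bp, and a nucleosome covers many more bases than these.
Pde1c, NM_001159957: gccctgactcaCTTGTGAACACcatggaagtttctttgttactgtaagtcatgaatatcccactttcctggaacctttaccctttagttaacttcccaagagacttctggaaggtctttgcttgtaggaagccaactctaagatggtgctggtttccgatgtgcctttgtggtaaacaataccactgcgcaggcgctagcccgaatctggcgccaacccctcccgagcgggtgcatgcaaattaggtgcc
Pde1c, NM_001025568: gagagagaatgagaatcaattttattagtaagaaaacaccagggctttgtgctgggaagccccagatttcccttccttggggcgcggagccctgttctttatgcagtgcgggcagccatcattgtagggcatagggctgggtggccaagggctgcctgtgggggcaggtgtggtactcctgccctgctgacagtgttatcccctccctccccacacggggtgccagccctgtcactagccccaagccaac

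The sequence with the position had 49.6% G and C and the other 58.0%. Neither held the cAMP response element TGACGTCA, the palindrome bound by CREB, nor its 5-base part TGACG or the reverse complement CGTCA, on which the longer motif is built. RefSeq windows of 250 bases were found for 37 of the 49 genes, 61 windows in all. The full element was in 0 of them, against 1.55% of all 32851 windows of that length, and the 5-base part in 8 (13.1%), against 17.8%. A missing match says only that these letters are not in these windows.

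Other phosphodiesterase genes had fewer entries. Pde6c, the cone photoreceptor enzyme on chromosome 19, was Up at 3 of 3 positions in resilient against susceptible, among them 1 just under 3 kb before its start. Of the 295 named genes with at least 3 positions in that table, 9.49% had all of them Up. Its 1 entry in resilient against control, Up at 38257592, is 1 of the same 3 positions, and the 2 tables share the resilient data. Pde6a, the rod enzyme, was Down at 2 of 2 in resilient against susceptible, 1 of them at -2.94 kb from its start. Pde8a, an enzyme of high affinity for cAMP, held 1 Up and 2 Down, then 2 Down, then 1 Up in the 3 tables, with 88434662 of chromosome 7 Down in both tables that use controls. Pde11a held 2 Down, then 1 Up and 1 Down, then 1 Up.

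Of the phosphodiesterases known for striatal neurons, Pde7b held 1 Down in each table with controls and 2 Up in resilient against susceptible. Pde4b, one of the targets of the inhibitor rolipram, was Up for susceptible against control mice at 102170052 of chromosome 4, and this position was Down for resilient against susceptible mice. Position 102194672 was Up in both tables that use the resilient data, and another, 3.23 kb inside the gene, was Down in resilient against control. Pde3a, an enzyme inhibited by cGMP, held 1 Up, then 1 Up, then 1 Up and 1 Down. Pde1a held 1 Down and 1 Up, Pde8b held 1 Up 3.96 kb inside its start in susceptible against control, and Pde5a held 1 Down in resilient against susceptible.

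Prkg1, which encodes the type I cGMP-dependent kinase, had H3 entries of 1 direction in both tables with resilient mice. Over its 1201 kb (chr19:30638976-31839523) it held 1 Up and 2 Down in susceptible against control, 3 Up of 3 in resilient against control and 6 Up of 6 in resilient against susceptible. Of the 391 genes with at least 3 positions in resilient against control, 3.58% had all of them Up, and of the 295 such genes in resilient against susceptible, 9.49%. Of the 147 genes with at least 4 positions in the latter table, 8 had all of them Up, Prkg1 among them. These 2 tables share the resilient data, and positions 31046312 and 31661292 are in both, so its 9 Up entries stand for 7 positions.

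Those positions were spread over the gene. In resilient against susceptible they lay 5.50 kb from the start of the long transcript NM_001013833 and 77.6, 155, 681, 693 and 1023 kb from the start of NM_011160. The Down positions of susceptible against control lay 18.8 kb from the start of NM_001013833 and 25.9 kb from that of NM_011160, both in the gene body class. Measured from the outermost start of the gene, the latter lay at 126.6 kb. Its Up position in that table lay 944 bp past the 3' bound. Prkg2, the type II kinase, held 1 Up in resilient against control. Of the protein kinase A genes, Prkar2a, a type II regulatory subunit, held 1 Up in resilient against susceptible. Prkar1b, a neuronal type I regulatory subunit, had a shift alone. Prkaca, Prkacb, Prkar1a and Prkar2b had no entry, and 29.6% of all protein-coding genes outside chromosome 1 had one.

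**Figure D4:**
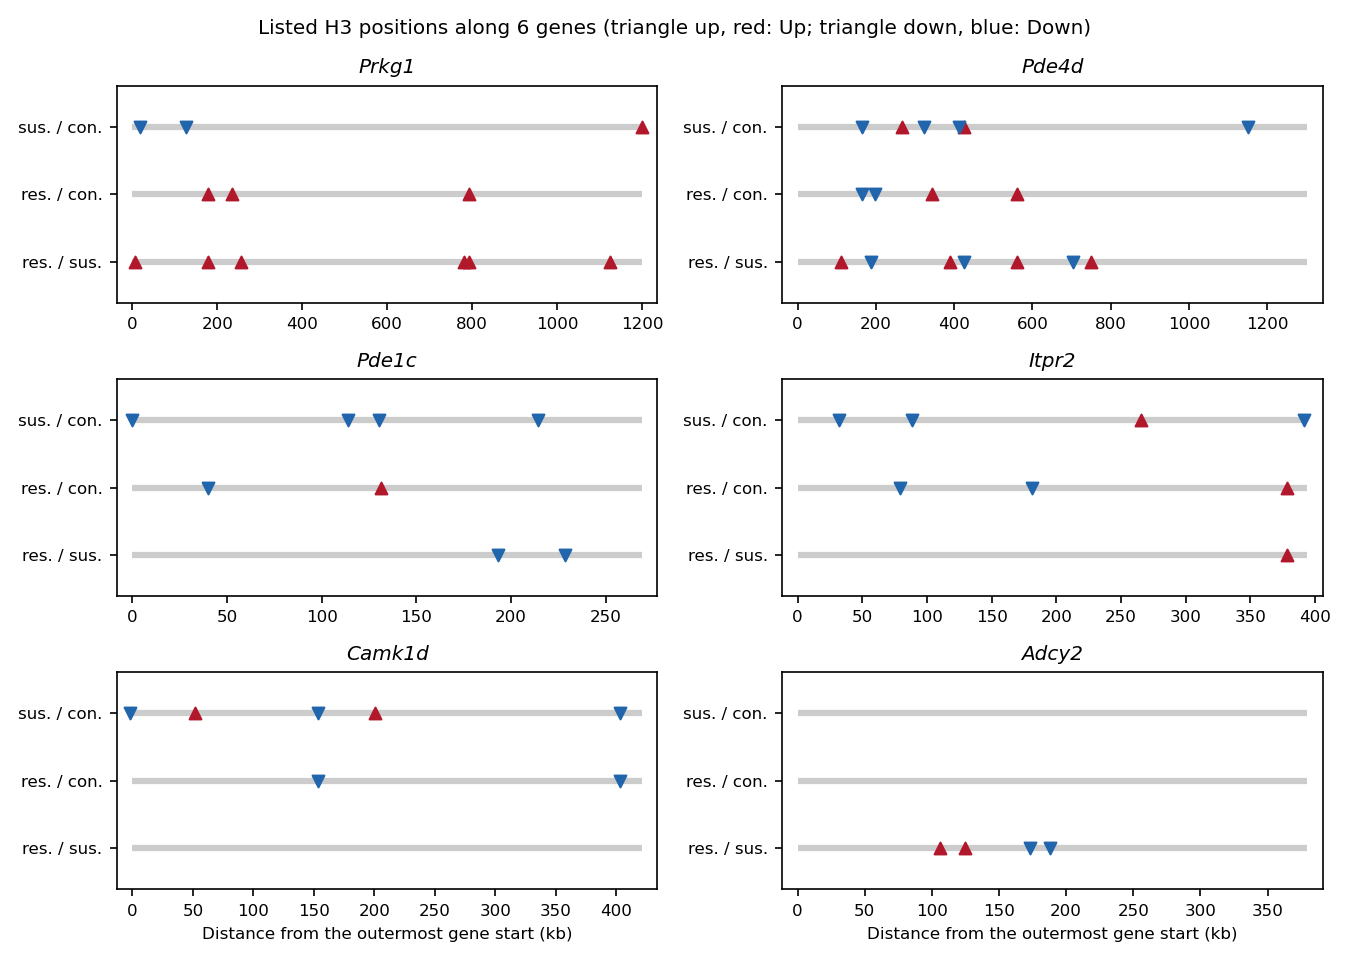
Listed H3 positions along Prkg1, Pde4d, Pde1c, Itpr2, Camk1d and Adcy2, as distance in kb from the outermost gene start, 1 line per table (sus., susceptible; res., resilient; con., control). Red triangles pointing up are Up and blue triangles pointing down are Down. All 9 entries of Prkg1 in the 2 tables with the resilient group are Up. Adcy2 has 2 Up entries nearer its start and 2 Down entries farther from it.

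Phospholipase C, which splits a membrane lipid into inositol trisphosphate and diacylglycerol, held 12 entries at 4 genes. Plcb1, coupled to Gq proteins (chr2:134611899-135300994), was Down at 1 position in susceptible against control, Up at 2 in resilient against control and Up at 1 in resilient against susceptible, at 4 different places. Plcb4 held 1 Up and 2 Down, then 1 Up and 1 Down in the 2 resilient tables, with 135671502 Up in both. Plcg2, an enzyme of immune cells, held a single position that was Down in both tables that use controls. Plcb2 held 1 Down position 0.613 kb inside its start in resilient against control.

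Inositol trisphosphate receptors, the calcium channels of the endoplasmic reticulum, were represented mainly by Itpr2 (chr6:146056820-146450745). It held 1 Up and 3 Down in susceptible against control, 1 Up and 2 Down in resilient against control, and 1 Up in resilient against susceptible; 146072602 was Up in both resilient tables. Itpr1, the main neuronal form, is 338 kb long and held 1 Down in susceptible against control.

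Protein kinase C genes held 17 entries at 7 genes, with 3 Up and 6 Down in susceptible against control and 1 Up and 3 Down in each table with resilient mice. Prkcq, an isoform best known from T cells, held 2 Up and 1 Down, then 1 Up and 2 Down, then 1 Down, at 7 different positions, and was the densest of the genes of at least 100 kb. Prkce, a calcium-independent isoform, held 1 Up and 1 Down, then 1 Down, then 1 Down, with 86945772 of chromosome 17 Down in both tables that use controls. Prkcd was Down 30.5 kb from its start in susceptible against control, and Up 3.71 kb from it when resilient were set against susceptible mice. Prkch, Prkci and the calcium-dependent Prkca held 1 Down each in susceptible against control, Prkca over a length of 411 kb.

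Calmodulin-dependent kinase genes held 22 entries at 7 genes, with 3 Up and 5 Down, then 3 Up and 4 Down, then 4 Up and 3 Down in the 3 tables. Camk1d (chr2:5214502-5635710) had 2 Up and 3 Down positions for susceptible mice and 2 Down positions for resilient mice, each compared with controls. Positions 5232762 and 5482712 were Down in both, and a further Down position lay at -2.24 kb from the start. Camk2d, a subunit of calmodulin-dependent kinase II, held 1 Up and 1 Down in each table with controls and 2 Up in resilient against susceptible. At 126517052 it was Down in both tables with controls and at 126354182 Up in both resilient tables. Camk4, a nuclear kinase that phosphorylates CREB, held 1 Down in susceptible against control and 1 position Up in both resilient tables.

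The subunits that dominate kinase II in forebrain neurons were listed in resilient against susceptible only. Camk2a held 1 Up position 9.40 kb from its start and Camk2b 2 Down positions. Camkk1, an upstream kinase, held 1 Down there, and Camkk2 held 1 Up and 1 Down in resilient against control, 990 bp apart. Among the symbols outside the pathway, Camkmt was Down once in each table, Pde4dip held 1 Down and 1 Up in the resilient tables, and Itpripl1 held 1 Up at -0.668 kb from its start in resilient against control.

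Several enzymes known for the striatum had no entry in the 6 tables. RefSeq lists 87 protein-coding genes outside chromosome 1 whose symbol fits the rule, and 49 of them (56.3%) were named in some table, against 29.6% of all 20692 such protein-coding genes. At lengths of at least 100 kb the shares were 32 of 39 (82.1%) and 70.2%. The 7 long genes without an entry were Adcy5, Gucy2f, Pde10a, Pde3b, Prkar2b, Prkcb and Prkcz. Among them are the main adenylyl cyclase of medium spiny neurons (Adcy5, 151 kb), the phosphodiesterase most concentrated in them (Pde10a, 461 kb) and a protein kinase C isoform abundant in forebrain (Prkcb, 345 kb). Pde1b (27.0 kb), Pde2a (91.1 kb), Prkacb (83.4 kb) and the soluble cyclase genes Gucy1a1 (53.5 kb) and Gucy1b1 (42.7 kb), called Gucy1a3 and Gucy1b3 in older annotation, had none either. Lengths here are of GRCm38.p6. The tables hold selected positions only, so a gene without an entry may have been unchanged or may have failed the authors' selection.

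Nucleosome shifts were listed at 6 of the 49 genes (12.2%), once each, beside 5.30% of all named genes; length, which is greater in the set, was not matched in this count. The authors' deposited tables gave -80 bp in Gucy2c, the gut receptor for guanylin, -80 bp in Pde4d and 70 bp in Itpr3 for susceptible against control. For resilient against control the authors' deposited table gave -60 bp in Gucy1b2, and for resilient against susceptible -60 bp in Pde3a and 70 bp in Prkar1b. All lay in gene bodies. The Pde3a shift of resilient against susceptible was listed at 141329352 of chromosome 6, the same position that was Up in occupancy in susceptible against control. The Pde4d shift at 109631412 lay 80 bp from a Down position of resilient against susceptible, and the Gucy1b2 shift lay 620 bp from a Down position of its own comparison.

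Few of these genes carried a segment of the ACF1 files, which divide each chromosome into 2 states without scores. The state covering the smaller part, E2, is called a segment here, and nothing in them says which state is ACF1 binding. A segment overlapped 1 of the 49 genes in control mice (2.04%), 2 in susceptible (4.08%) and 1 in resilient mice (2.04%), beside 1.81%, 2.50% and 1.40% of all named genes. Camk1d carried a segment of 1200 bp with the same bounds in all 3 groups (chr2:5299801-5301000), 335 kb from its start, and the nearest H3 position of the gene was 67.0 kb away. Plcb2, the haematopoietic form of phospholipase C beta, carried a segment of 1000 bp in susceptible mice (chr2:118535601-118536600), 17.0 kb from its Down position of resilient against control. That was the shortest distance between any H3 entry of the set and a susceptible segment, and the shortest was 51.7 kb for control and 51.5 kb for resilient segments, both at Camk2b.

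Other genes of the pathways held entries in both directions in each table. A list of 127 other genes of these pathways (G proteins, anchors, effectors, calcium handling, calcineurin, diacylglycerol enzymes, nitric oxide synthases and natriuretic peptide receptors) had 118 members outside chromosome 1, of which 68 (57.6%) were named in the tables, beside 29.6% of all protein-coding genes. Length was not matched in this count, and 70.2% of protein-coding genes of at least 100 kb outside chromosome 1 were named. The 68 genes held 29 Up of 67 positions in susceptible against control (43.3%, beside 37.6% over all named positions). In resilient against control they held 21 of 57 (36.8%, beside 36.7%), and in resilient against susceptible 24 of 55 (43.6%, beside 49.8%). The cAMP effectors had 7 Up of 15, 3 of 9 and 2 of 9, and the calcium handling genes 6 of 16, 6 of 17 and 6 of 12. Diacylglycerol enzymes and other phospholipases had 8 Up of 13 (61.5%), 4 of 13 and 4 of 11. The 61.5% was the highest Up share of these lists in the first table, followed by 57.1% for regulators and anchors. Both rest on few positions, and the order was not tested. Ryr2, the ryanodine receptor channel that releases calcium beside the Itpr channels, held 2 Up and 5 Down, then 2 Up and 5 Down, then 4 Down. Rgs6, which ends G protein signals, held 1 Up, then 2 Up and 1 Down, then 4 Up and 2 Down. Regulators and anchors as a list had 4 Up of 7, 5 of 10 and 8 of 15, and G protein subunits 3 of 12, 2 of 5 and 4 of 7.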

How the data were processed

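ACF1 chromatin immunoprecipitation and H3 after micrococcal nuclease digestion were read by sequencing of 100 bp, per the labels' protocols. The submitters' processing notes name CASAVA 1.8.2 and mm9; no source used here gives the aligner, callers or thresholds. The deposited segment files hold 2 states in steps of 200 bp and the deposited occupancy tables a direction, neither with a numeric unit. The shift in bp and the distance from the gene start are scores the authors deposited. Depth is unknown.

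Which groups a table compares was read from its deposited name. Entries were assigned by the gene symbol of the table, gene bounds were the outermost in the tables, and a segment overlapped a gene with at least 1 bp. Positions are 1-based. Counts, shares (exact 95% intervals) and positions per 100 kb were computed with Python 3.11.15, numpy 2.4.6, pandas 2.3.3 and scipy 1.17.1, and the figures with matplotlib 3.10.9. The counting was checked on simulated rows with known answers. With 1 table per comparison no test was run. The genes and lists were chosen with earlier results of these data known. Named in the text are genes with at least 4 positions in 1 table or 8 in all, a promoter position, a shift, a segment or a position in more than 1 table, genes known for striatal neurons, and the rest briefly; 1 gene of the set is counted but not reported here. The wider pathway list was fixed with the design, and Ryr2 and Rgs6 were named from it, and the counts of genes with all positions in 1 direction made, after values were seen. Of the named genes, 6678 of 6692 matched RefSeq.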

Additional observations from a re-analysis of the deposited data

How the results depend on the processing

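Of 64 alternative values for counts, shares and densities, 62 stayed within 1.5 times the reported count or within its counting interval. The share of Up ran from 20.9% to 31.5% in susceptible against control, from 46.2% to 49.0% in resilient against control and from 60.0% to 64.4% in resilient against susceptible. The alternatives kept chromosome 1, took any position within the gene bounds, left out the symbols outside the pathway, promoter classes, the gene with the most positions or genes under 100 kb, or merged neighbouring positions. Others matched positions of 2 tables within 100 bp, widened gene bounds by 10 kb for segments, or kept segments of at least 1000 bp. The length limit was chosen after seeing the data. With chromosome 1 kept, the positions of susceptible against control numbered 86 in place of 56. The 20.9% Up came from this setting alone, and the next lowest share was 29.1%, with neighbouring positions merged. The median over genes in that table was 0.268 positions per 100 kb, against 0.488 for all together, and the cause was not tested. No paired analysis was possible because each comparison is 1 deposited table, and for the same reason no replicate could be left out. Without read counts, sizes of change cannot be given.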

Other observations

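On chromosome 1, which the choice of genes left out, 3 further symbols fit the rule. Adcy10, the soluble bicarbonate-stimulated adenylyl cyclase, had 23 Down and 1 Up position when susceptible mice were compared with controls, and 1 Down for resilient mice compared with controls. Camk1g held 4 Down and Pde6d 2 Down in susceptible against control. That table held 11436 positions with a gene name on this chromosome, 98.4% of them Down. Resilient against control held only 468 there, 65.8% of them Down, and resilient against susceptible 427, 52.0% of them Down. The excess of entries in susceptible against control was thus found over the whole chromosome and is not particular to these 3 genes. For susceptible mice compared with controls, the authors' deposited table of shifts listed 3 in Adcy10, of -70, -60 and 60 bp.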
